A study of Mus musculus with 9 samples.

Results

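The D and E cyclins and the CDK inhibitors p27 (Cdkn1b) and INK4 (Cdkn2a, Cdkn2b, Cdkn2c and Cdkn2d) were followed through RNA sequencing of mouse embryonic lung. The 10 genes, 10 of the 55286 in the deposited tables, were taken by symbol: Ccnd1, Ccnd2, Ccnd3, Ccne1, Ccne2 and the 5 inhibitors named above. The series asks how an inhibitor of DOT1L acts on lung branching and epithelial proliferation. It has 3 groups of 3 libraries: explants of E11.5 lung cultured for 72 h with EPZ5676, explants cultured for 72 h as controls, and lung taken at E11.5, early in airway branching, with no culture. EPZ5676 (pinometostat) inhibits DOT1L, a methyltransferase whose mark on histone H3 is found along transcribed genes. The series holds no fresh lung of a later age, so culture and the 72 h that passed cannot be told apart in comparisons with E11.5 lung. The labels give no dose, strain, sex or pooling. Whole lung pieces were sequenced, so a lower level can come from fewer cells of a type or from less RNA per cell, and these cannot be told apart. Nothing in the labels states whether replicate libraries stem from different embryos or dishes; the spread behind each p-value may thus be technical.

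These genes control the step at which a cell leaves G1 and commits to replicating its DNA. D cyclins bind CDK4 and CDK6, which phosphorylate the RB proteins and so release E2F transcription factors. E2F factors then drive Ccne1 and Ccne2, whose products activate CDK2 at the start of S phase. The INK4 proteins bind CDK4 and CDK6 and keep D cyclins from activating them, while p27, of the CIP/KIP family, binds the CDK2 complexes. Cdkn2a also encodes ARF, which stabilises p53 and is read from its own first exon. In mouse tissues p16 (the INK4 product of Cdkn2a) and p15 (Cdkn2b) are known for rising with age and in senescence, whereas p18 (Cdkn2c) and p19 (Cdkn2d) are INK4 inhibitors expressed in developing tissue.

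Promoter bases are shown for 3 genes whose levels differed between cultured and fresh lung and for the neighbouring Cdkn2b and Cdkn2a, the least expressed genes of the set. They are the bases upstream of every annotated exon, 5′ to 3′ on the gene's own strand, from the RefSeq windows (build GRCm38.p6) of 250 bases before to 50 bases after a start. RefSeq windows were found for 7 of the 10 genes; Ccnd1, Ccnd2 and Ccne2 are named only. Capitals mark matches to a motif on either strand, and no match shown overlaps one of another motif. The GC box was searched as GGGCGG, a site bound by SP factors. The CCAAT box was searched as those 5 letters, and the cell cycle element CHR as TTTGAA. An E2F site was any of TTTCCCGC, TTTGGCGC, TTTCGCGC and TTTGCCGC.
Ccne1, chr7:38107535-38107740, minus strand: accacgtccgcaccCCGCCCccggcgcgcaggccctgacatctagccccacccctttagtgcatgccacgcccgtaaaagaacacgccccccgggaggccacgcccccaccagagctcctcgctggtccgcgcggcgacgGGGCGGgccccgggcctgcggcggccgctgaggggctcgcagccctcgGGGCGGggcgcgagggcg
Cdkn1b, chr6:134920151-134920400, plus strand: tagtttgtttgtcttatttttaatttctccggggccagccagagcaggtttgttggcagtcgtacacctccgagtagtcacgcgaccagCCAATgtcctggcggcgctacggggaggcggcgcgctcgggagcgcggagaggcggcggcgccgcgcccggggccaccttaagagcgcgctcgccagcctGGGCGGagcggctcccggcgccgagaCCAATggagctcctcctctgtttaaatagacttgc
Cdkn2d, chr9:21291408-21291459, minus strand: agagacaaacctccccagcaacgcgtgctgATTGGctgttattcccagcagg
Cdkn2b, chr4:89311040-89311282, minus strand: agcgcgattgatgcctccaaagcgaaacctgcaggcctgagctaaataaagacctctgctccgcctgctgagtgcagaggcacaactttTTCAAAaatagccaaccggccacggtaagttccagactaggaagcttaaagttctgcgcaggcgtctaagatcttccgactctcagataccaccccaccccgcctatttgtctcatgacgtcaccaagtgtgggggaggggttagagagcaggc
Cdkn2a (the upstream start, which gives ARF), chr4:89294654-89294869, minus strand: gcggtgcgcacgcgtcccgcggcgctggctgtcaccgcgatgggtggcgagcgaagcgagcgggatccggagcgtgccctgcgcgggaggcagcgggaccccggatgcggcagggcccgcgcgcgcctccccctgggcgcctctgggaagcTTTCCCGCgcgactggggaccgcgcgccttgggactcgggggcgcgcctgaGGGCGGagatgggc
A GC box stood in 9 of the 10 windows of these 7 genes, some of which have a pair of starts, against 35.7% of the 32851 RefSeq windows of the same length in the mouse. G and C made up 57.7% to 77% of the windows with a GC box and 44% of the window without it, of Cdkn2c. The share over all windows was not matched for base composition. CCAAT stood in 5 of the 10 windows, and 37.4% of all windows held it. The E2F letters were found in 1 of the 10 windows, that of Cdkn2a shown here, 99 bases before the start, and in 2.26% of all windows. The CHR letters were found in Cdkn2b alone and in 17.9% of all windows, and the forkhead motif TGTTTAC in Ccnd3 alone and in 3.65%. These matches describe the letters of the windows; nothing about binding was measured here.

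Per length of transcript, the D cyclins were the most abundant and Cdkn2b and Cdkn2a the least in each of the 3 groups. Values are deposited TPM, a measure of abundance per length of transcript, listed for replicates 1, 2 and 3. Fold changes come from counts, as log2 with the SE, and an adjusted p under 0.05 in edgeR's quasi-likelihood test with Benjamini-Hochberg adjustment over 15158 genes was called a change; 8 of the 10 genes passed the filter on low counts, and Cdkn2a and Cdkn2b did not. The EPZ5676 explants differed from Control explants in 0 of the 8 tested genes. Control explants differed from E11.5 lung in 6 of the 8, with Ccnd3, Cdkn1b, Cdkn2c and Cdkn2d higher and Ccne1 and Ccne2 lower. EPZ5676 explants differed from E11.5 lung in 5 of the 8, with Cdkn1b, Cdkn2c and Cdkn2d higher and Ccne1 and Ccne2 lower. Of all genes tested, 0% were called between EPZ5676 and Control explants, 37.7% between Control explants and E11.5 lung (21.1% higher and 16.6% lower), and 40% between EPZ5676 explants and E11.5 lung (22.1% higher and 17.9% lower). Both comparisons with fresh lung use the same E11.5 libraries, so their calls are not independent. The count for EPZ5676 against E11.5 became 3 without EPZ5676 2 or E11.5 3 and 6 without Control 1, which enters the shared estimate of spread. The count for Control against E11.5 became 3 without E11.5 2, 2 without E11.5 3 and 5 without Control 1.

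**Figure D1:**
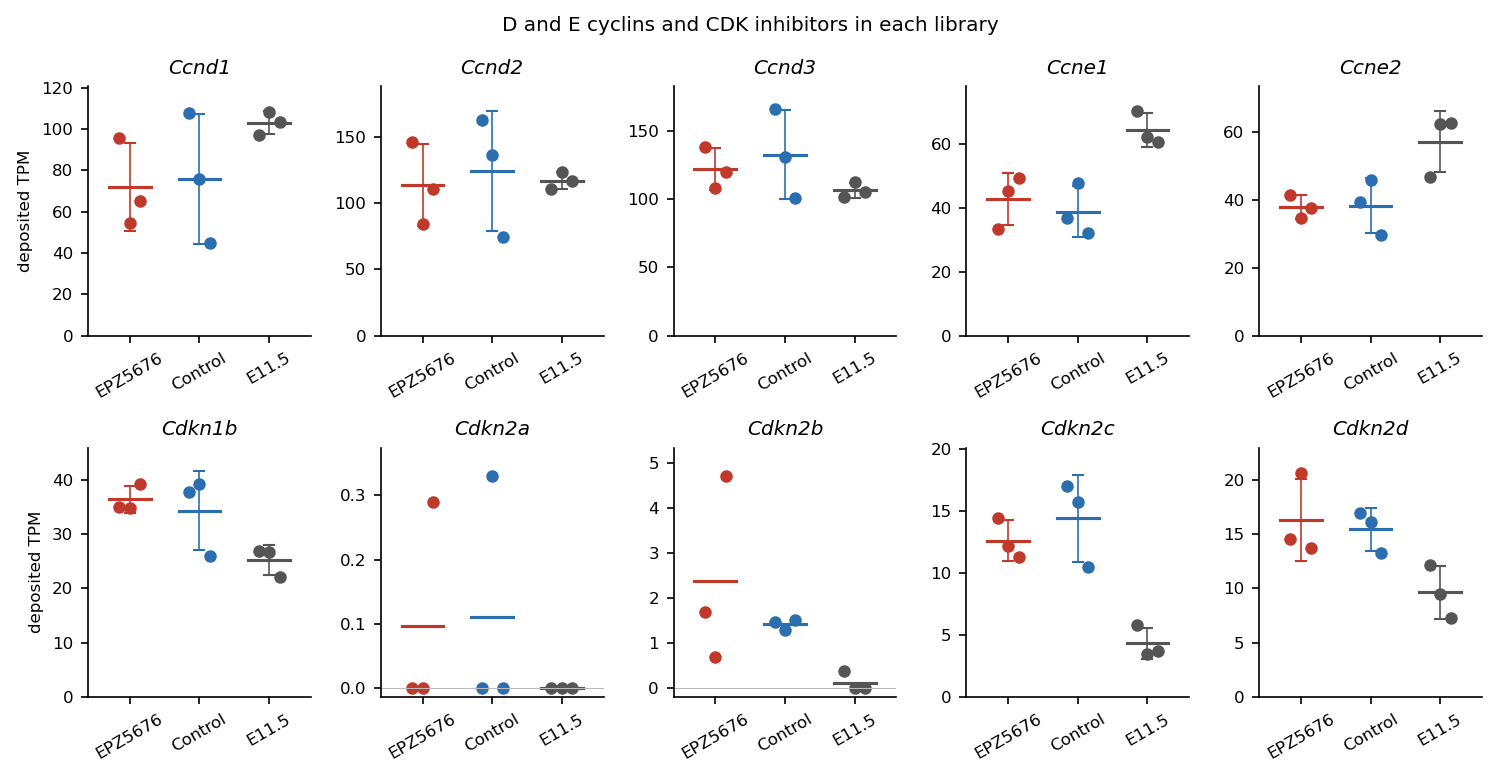
Deposited TPM (y axes, each on its own scale) of the 10 genes in the EPZ5676, Control and E11.5 libraries. Points are libraries, wide lines are means and error bars are SD over 3 libraries (not drawn for Cdkn2a and Cdkn2b, which had counts near 0); the EPZ5676 and Control points overlap for every gene, while Ccne1 is higher and Cdkn2c lower in the 3 E11.5 libraries than in all 6 cultured ones.

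Libraries held 6509563 to 9861452 counts. Markers of lung epithelium were present, 7 of 7, and summed to 1151 to 1964 TPM in EPZ5676 explants, 766.1 to 1510 TPM in Control explants and 225.1 to 249.6 TPM in E11.5 lung. Lung mesenchyme markers, 7 of 7, summed to 294.6 to 392.6 TPM in EPZ5676 explants, 352.8 to 411.2 TPM in Control explants and 388.6 to 434.4 TPM in E11.5 lung. The 10 red cell genes summed to 75.29 to 1062 TPM in EPZ5676 explants, 113.1 to 1207 TPM in Control explants and 18170 to 25090 TPM in E11.5 lung. Endothelial markers, 7 of 7, summed to 18.79 to 49.19 TPM in EPZ5676 explants, 11.39 to 69.55 TPM in Control explants and 177 to 192.9 TPM in E11.5 lung. Thus blood and vessel marker sums were lower in all 6 cultured libraries than in the fresh ones, and epithelial sums were higher. In the epithelial list Sftpc averaged 879.1, 541.7 and 13.35 TPM in EPZ5676, Control and E11.5 libraries. Nkx2-1, Epcam, Cdh1, Cldn6 and Foxa2 were, like Sftpc, higher in all 6 cultured libraries. Sox9 overlapped, at 19.83 to 27.71, 11.7 to 33.07 and 17.66 to 24.1 TPM in EPZ5676, Control and E11.5 libraries. Macrophage markers, 8 of 8, summed to 223.2 to 353.7 TPM in EPZ5676 explants, 152.5 to 289.5 TPM in Control explants and 30.89 to 48.43 TPM in E11.5 lung. Cx3cr1 in that list went against the sum, at 1.71 to 3.04, 0.51 to 2.13 and 3.43 to 7.99 TPM in EPZ5676, Control and E11.5 libraries. The library Control 1 stood apart with 298.3 TPM over 8 liver markers and 129.2 TPM over 8 heart muscle markers. Liver markers were otherwise at 35.66 to 62.45 TPM in EPZ5676 explants, with Apoa2, Fgb and Ahsg at 0, 29.08 TPM in Control 2, 15.05 TPM in Control 3, and 8.81 to 35.82 TPM in E11.5 lung. Trf made up most of the EPZ5676 sums, at 34.33 to 61.55 TPM beside 5.43 to 11.83 TPM in E11.5 lung. Afp, Alb and Apoa1 went against the sum, with means of 0.6133, 0.1033 and 0.08 TPM in EPZ5676 explants. In E11.5 lung these averaged 6.007, 2.173 and 1.417 TPM. Serpina1a averaged 0.41 TPM in EPZ5676 explants and 0.3267 TPM in E11.5 lung. Heart markers were at 20.89 to 35.29 TPM in EPZ5676 explants, with Nppa at 0, 13.98 TPM in Control 2, 25.32 TPM in Control 3, and 47.12 to 89.74 TPM in E11.5 lung. Control 3 stood apart in neural crest and neuron markers, with 114.3 TPM over 7 genes beside 21.67 to 49.6 TPM in the other libraries. The sums of epithelial, red cell, endothelial and macrophage markers thus separated the cultured from the fresh libraries, while mesenchyme sums overlapped. Single mesenchyme genes moved in opposite directions. Tbx5, Foxf1 and Wnt2 were lower in all 6 cultured libraries than in the fresh ones, and Tcf21 was higher. Tbx5 was at 36.13 to 47.46, 55.79 to 61.97 and 80.85 to 110.6 TPM in EPZ5676, Control and E11.5 libraries. The part of these cell types in the differences from E11.5 lung below was not tested.

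Among the D cyclins, Ccnd3 was higher in Control explants than in E11.5 lung, and no D cyclin differed between the EPZ5676 and Control explants. Ccnd1 (ENSMUSG00000070348, chr7:144929931-144939925, minus strand) encodes cyclin D1, which growth factor signals induce early in G1. Its level was 95.48, 54.45 and 65.25 TPM in EPZ5676 explants, 107.61, 75.57 and 44.64 TPM in Control explants, and 97.3, 108.38 and 103.59 TPM in E11.5 lung. Control 1 reached the level of fresh lung and the other Control libraries lay below it, as did all 3 EPZ5676 libraries. The log2 fold change was -0.08 ± 0.22 (95% interval -0.57 to 0.40, adjusted p = 0.962) for EPZ5676 against Control. It was -0.45 ± 0.22 (-0.94 to 0.04, adjusted p = 0.137) for Control against E11.5 and -0.53 ± 0.22 (-1.02 to -0.04, adjusted p = 0.0802) for EPZ5676 against E11.5, so no edgeR call was made for Ccnd1. Without Control 1, the library with the highest liver and heart marker sums, the Control difference from E11.5 became -0.67 with an adjusted p of 0.0352. The EPZ5676 difference from E11.5 passed without EPZ5676 1 (-0.73, adjusted p = 0.0326), without Control 3 (0.0263) or Control 1 (0.0446), in a fit to the 6 libraries compared (0.0198) and with DESeq2 (0.034).

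Ccnd2 (ENSMUSG00000000184, chr6:127125162-127152193, minus strand), the gene of cyclin D2, was at 145.74, 84.18 and 110.71 TPM in EPZ5676 explants, 162.43, 135.84 and 74.01 TPM in Control explants, and 110.28, 123.42 and 116.85 TPM in E11.5 lung. The fresh libraries lay close together, inside the range of both cultured groups. Its log2 fold change was -0.13 ± 0.20 (-0.58 to 0.31, adjusted p = 0.93) for EPZ5676 against Control, 0.10 ± 0.20 (adjusted p = 0.732) for Control against E11.5 and -0.03 ± 0.20 (adjusted p = 0.906) for EPZ5676 against E11.5. Gm43126, an antisense RNA that shares 372 of the 9409 exonic bases of Ccnd2, was at 10.19 to 25 TPM in EPZ5676 explants, 0 to 11.88 TPM in Control explants and 0 TPM in E11.5 lung; no strand setting is stated for the counting, so reads of this pair cannot be told apart.

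Ccnd3 (ENSMUSG00000034165, chr17:47505051-47599691, plus strand) encodes cyclin D3 and was at 137.95, 108.17 and 119.41 TPM in EPZ5676 explants, 165.74, 130.8 and 100.6 TPM in Control explants, and 101.68, 112.08 and 105.04 TPM in E11.5 lung. The groups overlapped in TPM, since Control 3 lay below the fresh libraries; on the log2 CPM scale used for the test the Control libraries all lay above the fresh ones. Against E11.5 lung Ccnd3 rose by 0.29 ± 0.09 on the log2 scale in Control explants (0.09 to 0.49, adjusted p = 0.0285). In EPZ5676 explants the difference from E11.5 lung was 0.18 ± 0.09 (adjusted p = 0.134), and EPZ5676 against Control gave -0.11 ± 0.09 (-0.31 to 0.09, adjusted p = 0.881). The Control call was lost in a fit to the 6 libraries compared (adjusted p = 0.0512), without Control 1 (0.0837), without E11.5 1 (0.106) or E11.5 3 (0.115), and with limma on TPM (0.214).

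The share of Ccnd1 in the D cyclin pool set the cultured libraries apart from the fresh ones, while the size of the pool overlapped. Summed over the 3 genes, D cyclin TPM was 246.8 to 379.2 in EPZ5676 explants, 219.2 to 435.8 in Control explants and 309.3 to 343.9 in E11.5 lung. Ccnd1 made up 25.18%, 22.06% and 22.09% of that sum in EPZ5676 explants, 24.69%, 22.08% and 20.36% in Control explants, and 31.46%, 31.52% and 31.83% in E11.5 lung. All 6 cultured libraries lay below all 3 fresh ones, including those with the largest D cyclin sums. The share of Ccnd3 was 36.38% to 43.83% in EPZ5676 explants, 38.03% to 45.88% in Control explants and 32.27% to 32.88% in E11.5 lung, with the cultured libraries above the fresh ones. The share of Ccnd2 was 34.11% to 38.44% in EPZ5676 explants, 33.76% to 39.69% in Control explants and 35.66% to 35.9% in E11.5 lung, and overlapped. On the log2 CPM scale, Ccnd1 minus Ccnd3 was 0.64, -0.05 and 0.19 in EPZ5676 explants, 0.52, 0.38 and -0.23 in Control explants, and 1.01, 0.93 and 1.06 in E11.5 lung, again without overlap between cultured and fresh libraries. These values are a description chosen after they were seen; no test of them was made. Both genes overlap a gene on the opposite strand. Ccnd1 shares 1100 of 4709 exonic bases with LTO1, at 17.53 to 24.74 TPM in EPZ5676 explants, 15.4 to 29.9 TPM in Control explants and 14.98 to 21.15 TPM in E11.5 lung. Ccnd3 shares 361 of 8775 with Bysl, at 7.79 to 10.95 TPM in EPZ5676 explants, 8.11 to 13.84 TPM in Control explants and 13.11 to 14.79 TPM in E11.5 lung.

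**Figure D2:**
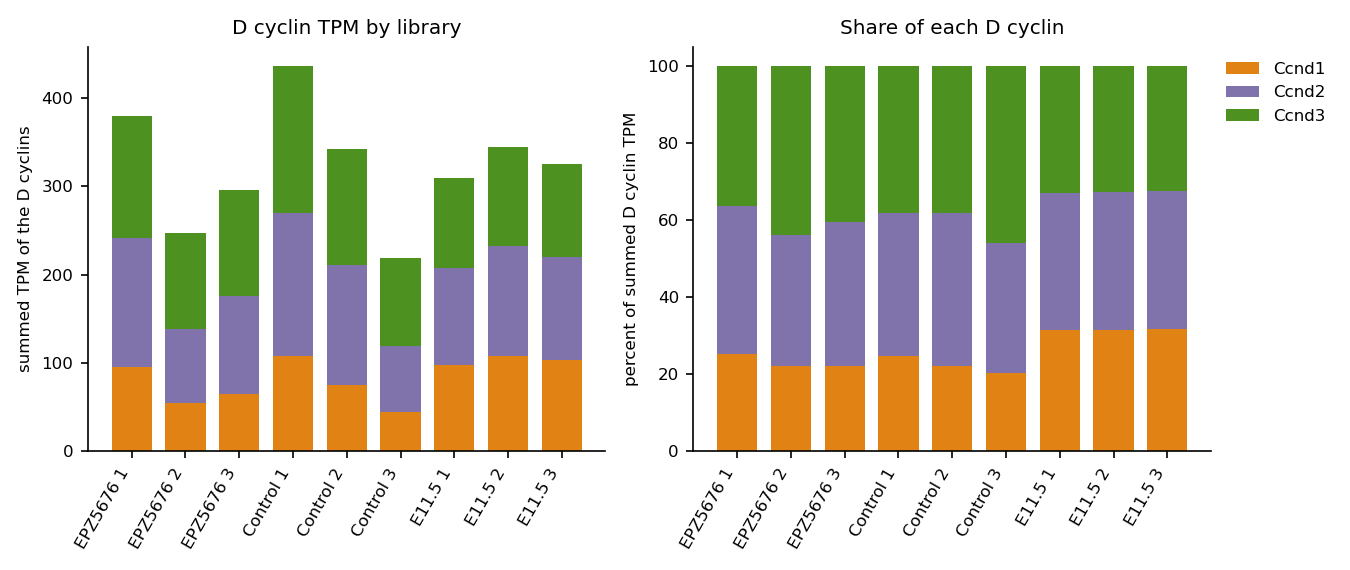
Summed TPM of Ccnd1, Ccnd2 and Ccnd3 (left, y axis in TPM) and the percent each contributes (right) in the 9 libraries, EPZ5676, Control and E11.5 in that order. The sum ranges over 219.2 to 435.8 TPM among Control libraries, while the Ccnd1 share is 20.36% to 25.18% in the 6 cultured libraries and 31.46% to 31.83% in the 3 E11.5 libraries.

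In TPM, the 3 D cyclins ranked the 6 cultured libraries in the same order. Control 1 had the highest TPM of Ccnd1, Ccnd2 and Ccnd3, followed by EPZ5676 1, Control 2, EPZ5676 3, EPZ5676 2 and Control 3, so the extremes were both Control libraries. On the log2 CPM scale of the test Ccnd1 and Ccnd2 kept that order, but Ccnd3 did not: it was 7.078, 7.108 and 7.087 in EPZ5676 1, 2 and 3 and 7.318, 7.091 and 7.171 in Control 1, 2 and 3, with EPZ5676 1 lowest and Control 3 second. Of 9 marker lists, 2 ranked these libraries in that same order. Endothelial markers summed to 49.19, 18.79 and 28.12 TPM in EPZ5676 1, 2 and 3 and to 69.55, 31.45 and 11.39 TPM in Control 1, 2 and 3. Cartilage markers summed to 144.5, 61.87 and 84.23 TPM in EPZ5676 explants and to 250.8, 84.35 and 54.01 TPM in Control explants. Control 2 and EPZ5676 3 were thus nearly tied in cartilage markers, and single genes of both lists broke the order. The cartilage gene Col9a1 was at 7.77 TPM in Control 2 and 10.17 TPM in EPZ5676 3. The endothelial gene Emcn was at 3.92 TPM in EPZ5676 1 and 5.58 TPM in Control 2. Sftpc, the surfactant gene of distal lung epithelium, was lowest in Control 1 (142.02 TPM) and highest in EPZ5676 2 (1444.81 TPM). Not all epithelial markers went this way. Foxa2 was highest in Control 1 (49.27 TPM) and lowest in Control 3 (17.49 TPM). Cdh1 and Epcam were also lowest in Control 3 (54.47 and 132.5 TPM). Whether these cell types account for the spread of the D cyclins was not tested. In E11.5 lung the TPM spread less, with SDs of 5.557, 6.57 and 5.307 TPM for Ccnd1, Ccnd2 and Ccnd3. In log2 CPM this did not hold for Ccnd3, which ranged over 7.078 to 7.108 in EPZ5676 explants, 7.091 to 7.318 in Control explants and 6.812 to 7.041 in E11.5 lung.

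Both E cyclins were lower in cultured explants than in E11.5 lung, with or without EPZ5676. Ccne1 (ENSMUSG00000002068, chr7:38097984-38107534, minus strand), which encodes cyclin E1, was at 33.51, 45.43 and 49.36 TPM in EPZ5676 explants, 36.7, 47.74 and 32.17 TPM in Control explants, and 70.47, 62.29 and 60.6 TPM in E11.5 lung. Every cultured library lay below every fresh one. Ccne1 fell by 0.64 ± 0.12 on the log2 scale in EPZ5676 explants against E11.5 lung (adjusted p = 0.00201), and it fell by 0.50 ± 0.12 in Control explants against E11.5 lung (adjusted p = 0.0079). Both calls held in all 18 alternative settings tried. EPZ5676 against Control gave -0.13 ± 0.12 (-0.40 to 0.13, adjusted p = 0.892) from counts, whereas the mean TPM was 42.77 ± 8.254 in EPZ5676 explants and 38.87 ± 8.009 in Control explants (SD, n = 3 each), which is the opposite direction.

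Ccne2 (ENSMUSG00000028212, chr4:11191351-11204779, plus strand), the gene of cyclin E2, was at 41.42, 34.53 and 37.63 TPM in EPZ5676 explants, 39.41, 45.7 and 29.62 TPM in Control explants, and 46.55, 62.14 and 62.44 TPM in E11.5 lung. Here too the cultured libraries all lay below the fresh ones, but E11.5 1 lay within 1 TPM of Control 2. Ccne2 fell by 0.29 ± 0.11 in EPZ5676 explants against E11.5 lung (adjusted p = 0.0497), and by 0.34 ± 0.11 in Control explants (adjusted p = 0.0276). The EPZ5676 call held in 9 of 18 alternatives and was lost without any 1 of the EPZ5676 or E11.5 libraries (0.0641 to 0.15), with DESeq2 (0.0592), with upper-quartile scaling (0.0506) and with no filter on low counts (0.0886). The Control call held in 13 of 18 and was lost without Control 1, Control 3 or any 1 of the E11.5 libraries (0.054 to 0.101). EPZ5676 against Control gave 0.05 ± 0.11 (-0.19 to 0.29, adjusted p = 0.952). Ccne2 shares 609 of its 3495 exonic bases with Ints8 on the opposite strand, which was at 44.16 to 49.15 TPM in EPZ5676 explants, 37.39 to 46.19 TPM in Control explants and 61.48 to 71.65 TPM in E11.5 lung. Ints8 was thus lower in the cultured libraries as well, and its part in the Ccne2 values was not tested.

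Together the E cyclins summed to 74.93 to 86.99 TPM in EPZ5676 explants, 61.79 to 93.44 TPM in Control explants and 117 to 124.4 TPM in E11.5 lung. Ccne1 held 44.72% to 56.82% of that sum in EPZ5676 explants, 48.22% to 52.06% in Control explants and 49.25% to 60.22% in E11.5 lung, so its share overlapped between the groups, unlike that of Ccnd1 among the D cyclins.

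RNA of the CIP/KIP inhibitor p27 was higher in both cultured groups than in E11.5 lung. Cdkn1b (ENSMUSG00000003031, chr6:134920401-134925513, plus strand), whose promoter shown above held 2 CCAAT boxes and 1 GC box in the printed bases, was at 35.02, 34.79 and 39.25 TPM in EPZ5676 explants, 37.73, 39.18 and 25.96 TPM in Control explants, and 26.88, 26.74 and 22.11 TPM in E11.5 lung. By TPM all EPZ5676 libraries lay above the fresh ones, and Control 3 lay among the fresh ones. On the log2 CPM scale of the test Control 3, at 5.626, also lay above the fresh libraries (5.286 to 5.459). Cdkn1b rose by 0.61 ± 0.15 in EPZ5676 explants against E11.5 lung (adjusted p = 0.00782, called in 18 of 18 alternatives). In Control explants it rose by 0.55 ± 0.15 (adjusted p = 0.014, called in 13 of 18). That call was lost without Control 2, E11.5 2 or E11.5 3 (0.0531 to 0.0632) and with limma on TPM (0.0903). EPZ5676 against Control was 0.06 ± 0.15 (-0.26 to 0.38, adjusted p = 0.958). p27 is known to be set largely by degradation of the protein, which RNA does not measure.

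Of the INK4 genes that passed the filter on low counts, Cdkn2c changed most. Cdkn2c (ENSMUSG00000028551, chr4:109660876-109667189, minus strand), which encodes p18, was at 14.42, 12.17 and 11.26 TPM in EPZ5676 explants, 17.03, 15.74 and 10.45 TPM in Control explants, and 5.8, 3.48 and 3.68 TPM in E11.5 lung. Every cultured library stood well above every fresh one. Cdkn2c rose by 1.60 ± 0.20 in EPZ5676 explants against E11.5 lung, 3.027-fold (1.15 to 2.05 on the log2 scale, adjusted p = 0.000183). In Control explants it rose by 1.81 ± 0.20, 3.495-fold (1.36 to 2.25, adjusted p = 0.000111), and both calls held in all 18 alternatives. EPZ5676 against Control gave -0.21 ± 0.19 (-0.62 to 0.20, adjusted p = 0.89).

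Cdkn2d (ENSMUSG00000096472, chr9:21288410-21291407, minus strand), the gene of p19, was at 14.58, 20.61 and 13.74 TPM in EPZ5676 explants, 16.99, 16.13 and 13.22 TPM in Control explants, and 12.13, 9.52 and 7.27 TPM in E11.5 lung. The fresh libraries lay below all cultured ones, by a narrow gap for E11.5 1. Cdkn2d rose by 0.88 ± 0.24 in EPZ5676 explants (adjusted p = 0.0128) and by 0.81 ± 0.24 in Control explants (adjusted p = 0.0202), each against E11.5 lung. The EPZ5676 call was lost without EPZ5676 2 (adjusted p = 0.0517) or E11.5 3 (0.0623), and the Control call without Control 2, E11.5 2 or E11.5 3 (0.0536 to 0.0903). EPZ5676 against Control was 0.07 ± 0.23 (-0.43 to 0.57, adjusted p = 0.966).

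Cdkn2b and Cdkn2a lie 11646 bases apart on chromosome 4, in the same direction. Cdkn2b (ENSMUSG00000073802, chr4:89306299-89311039, minus strand), which encodes p15, had 11, 4 and 27 counts in EPZ5676 explants, 11, 7 and 9 counts in Control explants, and 2, 0 and 0 counts in E11.5 lung. Its level was 1.7, 0.69 and 4.71 TPM in EPZ5676 explants, 1.47, 1.3 and 1.51 TPM in Control explants, and 0.37, 0 and 0 TPM in E11.5 lung. All cultured libraries thus had more Cdkn2b than the fresh ones, and EPZ5676 3 gave 27 of the 42 EPZ5676 counts. Summed over libraries it was at 1.92 CPM (counts scaled by library total) in EPZ5676 explants (exact Poisson 95% interval 1.38 to 2.59), 1.17 (0.772 to 1.7) in Control explants and 0.101 (0.0122 to 0.364) in E11.5 lung. The rate in EPZ5676 explants was 19 times that in E11.5 lung (4.95 to 162), and the rate in Control explants was 11.6 times that in E11.5 lung (2.92 to 101). EPZ5676 over Control was 1.64 (0.986 to 2.76). These intervals cover counting error only. With no filter on low counts, edgeR gave Cdkn2b an adjusted p of 0.000872 for EPZ5676 against E11.5, where 11.1% of genes were called higher, 0.00858 for Control against E11.5, where 10.3% were called higher, and 0.843 for EPZ5676 against Control.

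Cdkn2a (ENSMUSG00000044303, chr4:89274471-89294653, minus strand) had 1 count in EPZ5676 3, 1 count in Control 2 and 0 in the other 7 libraries. Its 2 annotated transcripts, p16 and ARF, cannot be told apart in a count per gene. For the count of 0 over the 3 E11.5 libraries, 3 counts over the group would be 0.151 CPM and the exact Poisson 95% interval reaches 0.186 CPM, and no difference between groups was detectable at this depth. The INK4 genes together summed to 30 to 33.47 TPM in EPZ5676 explants, 25.18 to 35.49 TPM in Control explants and 10.95 to 18.3 TPM in E11.5 lung. Cdkn2c made up 36.36% to 46.97% of that sum in EPZ5676 explants, 41.5% to 47.99% in Control explants and 26.77% to 33.61% in E11.5 lung. Cdkn2d made up 45.8% to 61.58% in EPZ5676 explants, 47.87% to 52.5% in Control explants and 66.28% to 73.23% in E11.5 lung. Cdkn2d was thus the larger INK4 component of fresh lung, and the share of Cdkn2c was higher in all 6 cultured libraries.

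**Figure D3:**
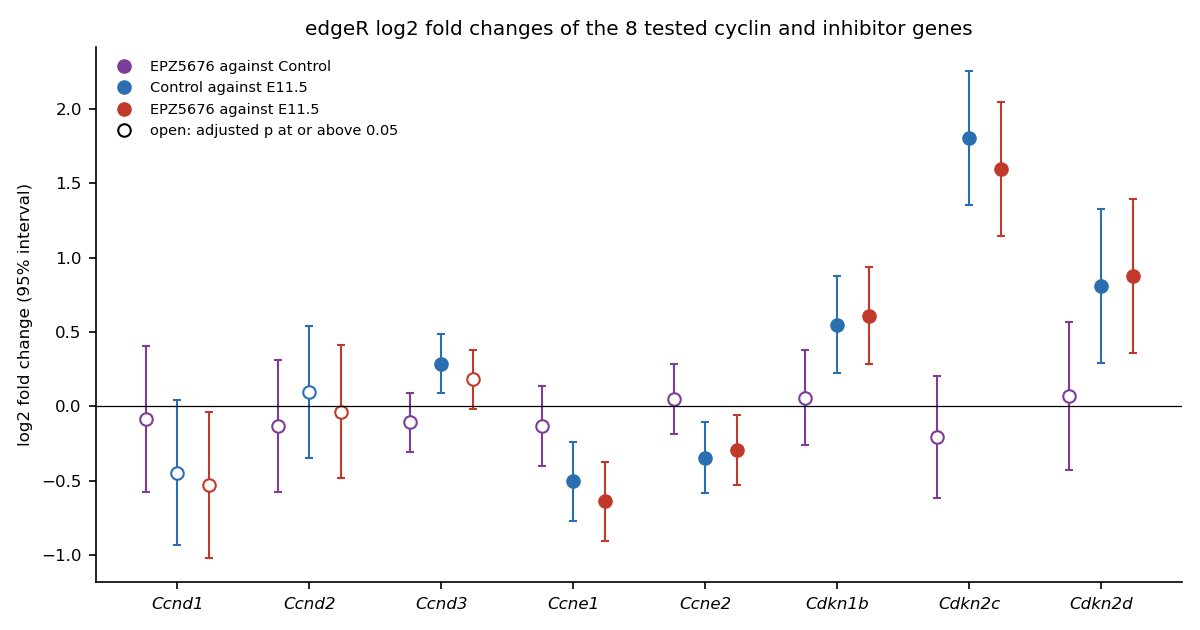
Log2 fold changes (y axis) with 95% intervals of the 8 tested genes in EPZ5676 against Control, Control against E11.5 and EPZ5676 against E11.5; filled points had an adjusted p under 0.05 in edgeR. All EPZ5676 against Control points are open, Cdkn2c is the highest at 1.81 and 1.60 against E11.5, and Ccne1 and Ccne2 are filled below 0.

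Set side by side, no gene of the set separated the EPZ5676 from the Control explants. The point estimates of the 8 tested genes lay between -0.21 and 0.07 on the log2 scale, and their intervals between -0.62 and 0.57. The narrowest intervals, those of Ccnd3 (-0.31 to 0.09) and Ccne2 (-0.19 to 0.29), leave room for small differences, and a p above the threshold does not show that the levels were alike. At an unadjusted p under 0.05, 0 of the 8 passed in edgeR (lowest p 0.265), 0 of 10 in DESeq2 (lowest p 0.277) and 0 of the 8 in limma (lowest p 0.461). Over all genes edgeR called 0 of 15158 between EPZ5676 and Control explants, with 1052 at an unadjusted p under 0.05, and 26 without EPZ5676 2. Limma called 0, edgeR with no filter 76 and DESeq2 104 (0.545% of its genes), with 0 of the set among them. The spread between libraries was wide in both groups, with a biological coefficient of variation of 18.8% in EPZ5676 explants and 24.5% in Control explants, against 11% in E11.5 lung.

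By TPM the order of the genes was alike across groups. In EPZ5676 and in Control explants it ran Ccnd3, Ccnd2, Ccnd1, Ccne1, Ccne2, Cdkn1b, Cdkn2d, Cdkn2c, Cdkn2b and Cdkn2a by the mean, and in E11.5 lung Ccnd2 stood before Ccnd3. In E11.5 lung the ranges of Ccnd1 and Ccne1, of Ccne2 and Cdkn1b, of Cdkn1b and Cdkn2d, of Cdkn2d and Cdkn2c and of Cdkn2c and Cdkn2b did not overlap. Among the D cyclins of E11.5 lung, Ccnd3 overlapped Ccnd2 and Ccnd1, which did not overlap each other. In EPZ5676 explants Ccne1, Ccne2 and Cdkn1b overlapped, with means of 42.77 ± 8.254, 37.86 ± 3.451 and 36.35 ± 2.511 TPM (SD, n = 3 each). In Control explants the same genes averaged 38.87 ± 8.009, 38.24 ± 8.103 and 34.29 ± 7.25 TPM and overlapped too. In E11.5 lung the E cyclins overlapped each other and Cdkn1b lay below both, with Ccne1 at 64.45 ± 5.279 TPM, Ccne2 at 57.04 ± 9.089 TPM and Cdkn1b at 25.24 ± 2.714 TPM.

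The genes around these in the pathway were read from 8 lists of 63 genes, chosen with earlier results of these data known. Their counts stand beside 22.1% of all genes called higher and 17.9% lower for EPZ5676 against E11.5, and 21.1% higher and 16.6% lower for Control against E11.5. Cdkn1a, the p53 target that encodes the CIP/KIP inhibitor p21, rose further than any of the 8 tested genes of the set. It was at 30.12, 45.83 and 39.83 TPM in EPZ5676 explants, 28.66, 32.45 and 40.37 TPM in Control explants, and 2.62, 4.45 and 3.58 TPM in E11.5 lung. The cultured libraries lay far above the fresh ones. Cdkn1a rose by 3.40 ± 0.29 in EPZ5676 explants (adjusted p = 2.22e-05) and by 3.25 ± 0.29 in Control explants (adjusted p = 3.67e-05) against E11.5 lung. The other CIP/KIP gene, Cdkn1c (p57), differed from E11.5 lung by 0.25 ± 0.16 in EPZ5676 explants (adjusted p = 0.254) and by 0.21 ± 0.16 in Control explants (adjusted p = 0.352).

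Among 4 genes of the ARF and p53 axis, 2 were higher and 1 lower in either cultured group against E11.5 lung. Ccng1, a p53 target, averaged 78.9 ± 26.2 TPM in EPZ5676 explants, 88.75 ± 25.14 TPM in Control explants and 26.28 ± 3.317 TPM in E11.5 lung (SD, n = 3 each). It rose by 1.62 ± 0.35 in EPZ5676 explants (adjusted p = 0.00716) and by 1.85 ± 0.35 in Control explants (adjusted p = 0.00432). Mdm2, the ubiquitin ligase of p53 and itself a p53 target, rose by 0.42 ± 0.15 in EPZ5676 explants (adjusted p = 0.0396) and by 0.56 ± 0.15 in Control explants (adjusted p = 0.0121). The p53 gene itself, Trp53, fell by 0.53 ± 0.08 in EPZ5676 explants (adjusted p = 0.000626) and by 0.24 ± 0.08 in Control explants (adjusted p = 0.0437).

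Replication markers fell along with the E cyclins. Of 9 such genes, 7 fell and 0 rose in EPZ5676 explants against E11.5 lung, with a median log2 fold change of -0.502 beside 0.0189 over all genes tested. In Control explants 8 fell and 0 rose, with a median of -0.429 beside 0.0198. Mcm5, a subunit of the replicative helicase, averaged 83.15 TPM in EPZ5676 explants, 91.15 TPM in Control explants and 130.7 TPM in E11.5 lung. It fell by 0.65 ± 0.08 in EPZ5676 explants (adjusted p = 0.000156) and by 0.49 ± 0.08 in Control explants (adjusted p = 0.00102). Mcm3 and Mcm6, of the same helicase, fell by 0.63 and 0.67 in EPZ5676 explants and by 0.52 and 0.48 in Control explants. Mki67, expressed in cycling cells, fell by 0.34 ± 0.12 in EPZ5676 explants (adjusted p = 0.0462) and by 0.51 ± 0.12 in Control explants (adjusted p = 0.00745). Of 5 tested genes among the A and B cyclins and Cdk1, 2 fell in EPZ5676 explants and 3 in Control explants, and 0 rose. Ccna2, the S phase cyclin A2, averaged 117.3 ± 1.084 TPM in EPZ5676 explants, 110.4 ± 33.28 TPM in Control explants and 180.2 ± 16.04 TPM in E11.5 lung. It fell by 0.57 ± 0.16 in EPZ5676 explants (adjusted p = 0.0145) and by 0.64 ± 0.16 in Control explants (adjusted p = 0.0093). Ccnb1, the mitotic cyclin B1, fell by 0.47 ± 0.13 in EPZ5676 explants (adjusted p = 0.0133) and by 0.46 ± 0.13 in Control explants (adjusted p = 0.0154). Ccnb2, the related cyclin B2, fell by 0.30 ± 0.11 in Control explants (adjusted p = 0.0491), and EPZ5676 against E11.5 gave -0.14 ± 0.11 (adjusted p = 0.31).

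Most kinase partners and activators did not pass the test. Of 8 G1 kinases and activators, 3 fell in EPZ5676 explants and 2 in Control explants against E11.5 lung. Cdc25a, the phosphatase that activates CDK2, fell by 0.78 ± 0.12 in EPZ5676 explants (adjusted p = 0.000578) and by 0.59 ± 0.12 in Control explants (adjusted p = 0.00332). Ccnh, the cyclin of the CDK-activating kinase, fell by 0.41 ± 0.12 in EPZ5676 explants (adjusted p = 0.0165) and by 0.39 in Control explants (adjusted p = 0.0236). Cdk6, named after its values were seen, fell by 0.46 ± 0.14 in EPZ5676 explants (adjusted p = 0.0249), while Control against E11.5 gave -0.19 ± 0.14 (adjusted p = 0.325) and the Control and EPZ5676 explants were not told apart (adjusted p = 0.768).

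In the RB and E2F family, 1 of 13 genes rose and 3 fell in EPZ5676 explants, and 1 rose and 2 fell in Control explants, against E11.5 lung, counts near or below the shares over all genes. E2f5, a repressor E2F that binds the RB relatives, averaged 24.55 ± 1.758 TPM in EPZ5676 explants, 26.36 ± 4.578 TPM in Control explants and 59.47 ± 8.816 TPM in E11.5 lung. It fell by 1.27 ± 0.13 in EPZ5676 explants (adjusted p = 4.24e-05) and by 1.14 ± 0.13 in Control explants (adjusted p = 0.000105). Rbl2, the RB relative p130 that accumulates in resting cells, rose by 0.83 ± 0.16 in EPZ5676 explants (adjusted p = 0.00202) and by 0.83 ± 0.16 in Control explants (adjusted p = 0.0022). E2f6, a repressor that does not bind RB, fell by 0.58 ± 0.10 in EPZ5676 explants (adjusted p = 0.000871) and by 0.56 ± 0.10 in Control explants (adjusted p = 0.00136), and Tfdp2, an E2F partner named after its values were seen, fell by 0.69 ± 0.15 in EPZ5676 explants (adjusted p = 0.00506). For Tfdp2, Control against E11.5 gave -0.31 ± 0.15 (adjusted p = 0.135) and EPZ5676 against Control did not pass (adjusted p = 0.663).

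Regulators of the stability of these proteins fell or did not pass. Of 12 turnover genes, 5 fell in EPZ5676 explants and 4 in Control explants against E11.5 lung. Skp2, which marks p27 for degradation, averaged 47.07 ± 3.684 TPM in EPZ5676 explants, 46.72 ± 6.067 TPM in Control explants and 79.12 ± 3.515 TPM in E11.5 lung. It fell by 0.76 ± 0.11 in EPZ5676 explants (adjusted p = 0.000355) and by 0.75 ± 0.11 in Control explants (adjusted p = 0.000451). Btrc, Cul3 and Ddb1, parts of other ubiquitin ligases, fell by 0.53, 0.48 and 0.42 in EPZ5676 explants and by 0.47, 0.41 and 0.41 in Control explants against E11.5 lung. Fbxw7, which marks cyclin E for degradation and was named after its values were seen, fell by 0.31 ± 0.10 in EPZ5676 explants (adjusted p = 0.0379) against E11.5 lung. Control against E11.5 gave -0.06 ± 0.10 for Fbxw7 (adjusted p = 0.697), and EPZ5676 against Control did not pass (adjusted p = 0.684).

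Of 9 Polycomb genes, whose products are known to silence the Cdkn2a and Cdkn2b locus, 1 rose and 2 fell in EPZ5676 explants and 1 rose and 1 fell in Control explants, against E11.5 lung, which is also near or below the shares over all genes. Ezh2, the H3K27 methyltransferase, averaged 158.5 ± 10.14 TPM in EPZ5676 explants, 170.7 ± 27.4 TPM in Control explants and 284 ± 18.95 TPM in E11.5 lung. It fell by 0.83 ± 0.10 in EPZ5676 explants (adjusted p = 9.8e-05) and by 0.68 ± 0.10 in Control explants (adjusted p = 0.000393). Cbx7, a reader of the mark, averaged 1.463 TPM in EPZ5676 explants, 2.383 TPM in Control explants and 0.6267 TPM in E11.5 lung. It rose by 1.21 ± 0.30 in EPZ5676 explants (adjusted p = 0.00799) and by 0.85 ± 0.30 in Control explants (adjusted p = 0.0456) against E11.5 lung, so counts and TPM ordered the cultured groups differently for this low gene. Bmi1, named after its values were seen, fell by 0.40 ± 0.09 in EPZ5676 explants (adjusted p = 0.00556), while Control against E11.5 gave -0.18 ± 0.09 (adjusted p = 0.143) and EPZ5676 against Control did not pass (adjusted p = 0.684).

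Between EPZ5676 and Control explants 0 of the 62 tested list genes were called by edgeR, and 1, Ccna1, by DESeq2 (0.545% of all its genes). Ccna1, the A cyclin known from male germ cells and named after its values were seen, had 21, 8 and 41 counts in EPZ5676 explants, 3, 3 and 1 counts in Control explants, and 11, 6 and 4 counts in E11.5 lung. All EPZ5676 libraries lay above all Control libraries, at low counts in both. Its log2 fold change for EPZ5676 against Control was 3.31 ± 0.71 (1.75 to 4.86, unadjusted p = 0.000691, adjusted p = 0.244). The adjusted p was 0.0318 with DESeq2, 0.00815 in edgeR with no filter on low counts, and 0.0593 to 0.731 when 1 library was left out. All 8 G1 kinases and activators and all 12 turnover genes had estimates below 0, with medians of -0.0794 and -0.0677 on the log2 scale beside -0.00376 over all genes tested, and 0 genes of either list passed the test. Over all genes tested, 7460 of 15158 estimates were above 0. By mean TPM the direction was the opposite for Cdk7, Cdc37, Skp2, Cul1, Fbxo31 and Cul4a, which were higher in EPZ5676 than in Control explants. The replication markers had a median of -0.147, with 2 of 9 above 0, and the ARF and p53 axis -0.183.

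**Figure D4:**
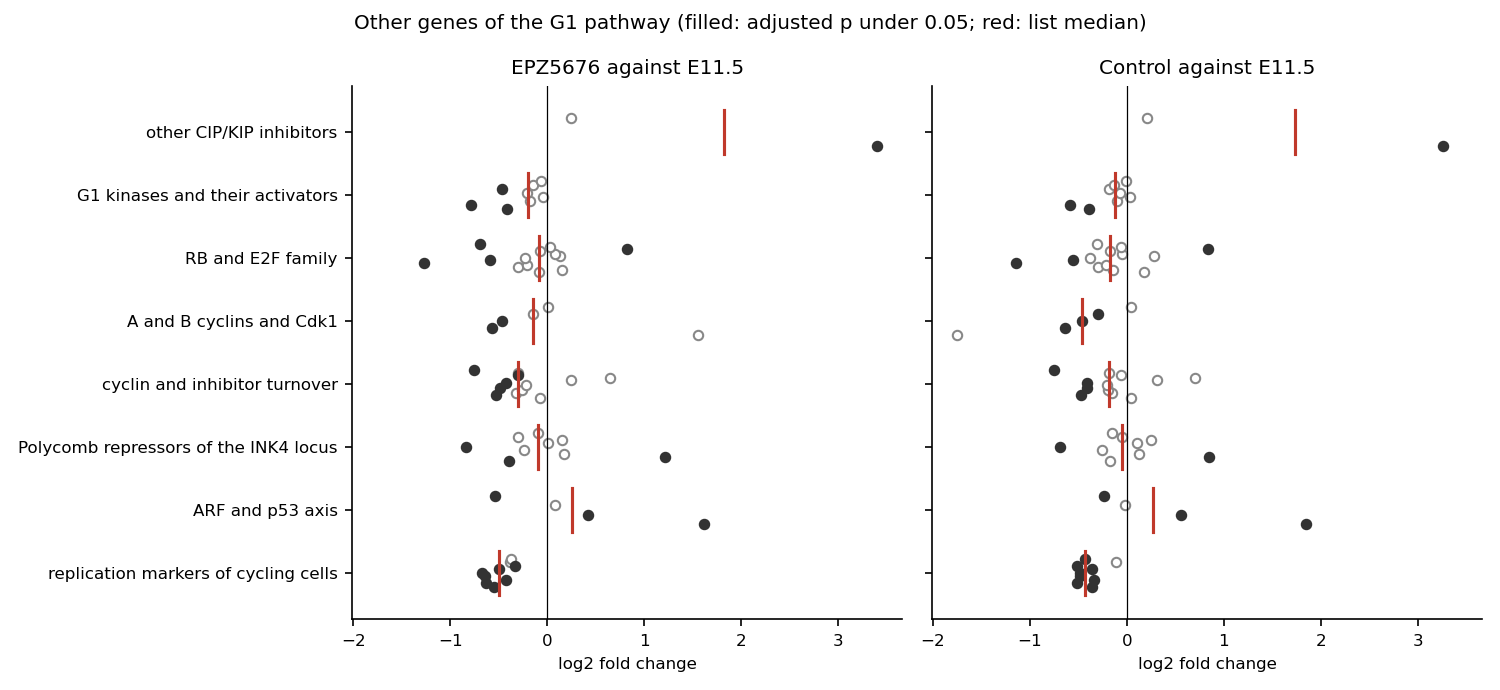
Log2 fold changes (x axis) of the tested genes of 8 pathway lists (rows) in EPZ5676 explants against E11.5 lung (left) and Control explants against E11.5 lung (right); filled points had an adjusted p under 0.05 and red bars are list medians. Cdkn1a stands farthest right at 3.40 and 3.25, and the replication markers lie below 0 in both panels, with medians of -0.502 and -0.429.

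Over the 9 libraries, the genes whose log2 CPM profile lay closest to each gene of the set were found by the root mean square difference of centred values, among 10565 genes with a mean of at least 5 TPM. Ccnd1 was closest to Aars2 (0.09698), Alkbh1 (0.1115) and Taf1a (0.1235). For Ccnd2 these were Rassf3 (0.08656), Mmp15 (0.08873) and Fbxl18 (0.09909), and for Ccnd3 Alkbh6 (0.04714), Vps9d1 (0.05396) and Zfp319 (0.06134). Among the genes closest to Ccne1 were Acp1 (0.0693) and Cenpn (0.0758), a centromere protein. Ccne2 had Hmgxb4 (0.04344), Ahsa2 (0.05028) and the mitotic motor Kif11 (0.05106). Cdkn1b had Tvp23b (0.09339), the DNA damage sensor Ddb2 (0.09913) and the BCL2 relative Bcl2l2 (0.09951). Cdkn2c, the tested gene of the set with the largest change, had the loosest neighbours, Fam84b (0.1526), Grina (0.1586) and Eps8l2 (0.16), and Cdkn2d had Slc50a1 (0.127), Adamts1 (0.1429) and Gnpda1 (0.1472). All of these values share the 9 libraries and their split between fresh and cultured lung.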

How the data were processed

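RNA of 9 mouse lung samples was extracted with TRIzol and made into libraries with a Vazyme VAHTS kit, per the labels. RSEM, Bowtie2 and mm10 are named in the submitters' processing notes without versions, and the sources used here give no strand setting. The authors deposited expected counts, which RSEM-type tools estimate and which may be fractional (those of Ccnd1, Ccnd3 and Ccne2 were in all 9 libraries). The authors also deposited TPM, scaled by transcript length and library. Gene positions are from GENCODE M21 (GRCm38, the assembly of mm10).

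After rounding, the expected counts of 15158 of 55286 genes passed filterByExpr (minimum count 10). They were scaled by TMM and fitted by group over the 9 libraries with edgeR 4.0.16 in R 4.3.3 (robust quasi-likelihood F test, two-sided, Benjamini-Hochberg, threshold 0.05). Each SE follows from its F statistic, and a prior count of 2 entered log2 CPM. Libraries held 6509563 to 9861452 counts, and low counts limit Cdkn2a and Cdkn2b. Within each group no library was a duplicate of another (chi-square per degree of freedom 2.561 to 28.45). Pairs from different groups were not checked in this way. The fit was tested on simulated data.

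The genes, lists and tests were chosen with earlier results of these data known. Named were all 10 genes, up to 4 genes of each list past the threshold with the largest change in Control against E11.5, and the 3 closest profiles of each tested gene, of which 1 is not reported here. Other names are marked where they stand. Alternatives were scaling by RLE or upper quartile, DESeq2 1.42.0, other filters (none, or 50 counts in 3 libraries), a fit to 6 libraries, the replicate number as a block, limma 3.58.1 on log2(TPM + 1) or log2(TPM + 0.1), and each library left out.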

Additional observations from a re-analysis of the deposited data

How the results depend on the processing

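Of 432 alternative values of single genes, 383 kept direction and side of the threshold, 30 lost a call, 7 gained one and 12 changed sign. Genes called between EPZ5676 and Control explants numbered 104 with DESeq2, 76 with no filter, 1 with the replicate block and 0 to 26 when one library was left out (26 without EPZ5676 2); none of the 10 genes was called in any of these. Leaving out a library gave 3 to 6 called genes of the set for EPZ5676 against E11.5 (3 without E11.5 3 or EPZ5676 2) and 2 to 6 for Control against E11.5 (2 without E11.5 3, 3 without E11.5 2). Ccne1 and Cdkn2c were called in both comparisons under all 18 alternatives. The sign changes were of uncalled differences. For EPZ5676 against Control, the log2 fold change without one library ranged over -0.29 to 0.15 for Ccnd1, -0.33 to 0.020 for Ccnd2, -0.023 to 0.16 for Ccne2, -0.063 to 0.23 for Cdkn1b and -0.19 to 0.18 for Cdkn2d, and limma on TPM gave 0.13 and 0.14 for Ccne1. For Ccnd2 the range was -0.20 to 0.12 for EPZ5676 against E11.5 and -0.045 to 0.30 for Control against E11.5. The cause was not tested beyond the library left out.

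With the replicate number as a block, 6 genes of the set were called for EPZ5676 against E11.5, Ccnd1 among them (adjusted p = 0.0471), 6 for Control against E11.5 and 0 for EPZ5676 against Control. The numbers were not taken to pair libraries: deviations of same-numbered EPZ5676 and Control libraries correlated at 0.4565, 0.07886 and -0.04685, and EPZ5676 2 and 3 correlated best with another number. Depth limits Cdkn2a, with 2 counts in all, and Cdkn2b.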
